A study of Mus musculus with 43 samples.

Results

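The histone marks H3K27ac and H3K4me3 were compared in wild-type (WT) mouse testis cells at postnatal day 7 (P7), using the 4 peak lists of these marks, 2 per mark, among the 43 samples of the series. The cells were a single-cell suspension from testes of C57BL/6J mice, labelled spermatogonia, the mitotic germ cells of the first wave of spermatogenesis. Each list came from CUT&Tag, in which an antibody guides a transposase that cuts and tags the DNA beside the marked nucleosomes. Gene expression came from the WT RNA libraries of the same age, 3 bulk RNA-seq libraries of total testis RNA, also labelled spermatogonia, and 2 Smart-seq2 libraries of sorted, GFP-positive germ cells. The labels state 3 days of tamoxifen for these WT RNA samples, and the methods name heterozygous Ddx4-GFP-CreERT2; Prmt1+/lox mice as the Smart-seq2 controls, so that the Cre is driven by the Ddx4 promoter in germ cells. Expected counts summed to between 15196883 and 16598249 in the bulk libraries and to 18547103 and 17788025 in the Smart-seq2 libraries. The read depth behind the peak lists is unknown, so no interval is attached to a fold enrichment. The study describes its experiments as done in at least 3 biological replicates unless stated otherwise, and the Smart-seq2 libraries as biological duplicates. The animals behind each list or library are not named in the labels, so where they are shared the spread is technical.

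H3K4me3, trimethylation of lysine 4 of histone H3, sits on the nucleosomes around the start sites of genes, above all where the DNA is rich in CpG dinucleotides, and it is found at many promoters that are poised or weakly transcribed. H3K27ac, acetylation of lysine 27 of the same histone, is laid down by the acetyltransferases p300 and CBP at active promoters and at active enhancers away from genes. H3K27ac at a promoter excludes methylation of the same lysine, the repressive mark of Polycomb. In germ cells, many promoters of developmental regulators are known to hold H3K4me3 together with the Polycomb mark, which was not measured here.

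A promoter was taken as the 3000 bp on either side of any start site of a gene, and it was said to hold a mark when both lists of that mark had a peak summit there. Of 21938 protein-coding genes, 6634 (30.2%) held both marks and 3624 (16.5%) held H3K4me3 in both lists with no H3K27ac summit in either list (H3K4me3 alone). A further 3053 genes had H3K4me3 in both lists and H3K27ac in 1 list. Only 118 genes (0.538%) held H3K27ac in both lists with no H3K4me3, and 7273 (33.2%) had no summit of either mark. H3K4me3 thus marked 13311 genes (60.7%), of which 49.8% held H3K27ac in both lists, and 97.8% of the genes with H3K27ac in both lists held H3K4me3 in both lists. Outside promoters, 1596 of 7941 H3K27ac regions shared by the 2 lists had no start site within 3000 bp and overlapped no H3K4me3 peak.

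The base composition of these classes is shown by 4 promoters, each given as the 250 bases before the start of the RefSeq table (GRCm38.p6), 5′ to 3′ on the strand of the gene, with CpG dinucleotides in capitals. Dazl, which encodes a germ cell RNA-binding protein, held both marks and its window (chr17:50293621-50293870, minus strand) has 20 CpGs. Isl1, which encodes a LIM-homeodomain factor of motor neuron and heart development, held H3K4me3 alone and its window (chr13:116309689-116309938, minus strand) has 33 CpGs. Mei1, a gene needed for the DNA breaks of meiosis, was classed as H3K27ac alone and its window (chr15:82082226-82082475, plus strand) has 8 CpGs. No peak of either mark overlapped that window itself, the H3K27ac summits of Mei1 lying elsewhere in the 3000 bp. Prm1, which encodes a protamine that packs sperm DNA, had neither mark and its window (chr16:10796824-10797073, minus strand) has 0 CpGs.
Dazl: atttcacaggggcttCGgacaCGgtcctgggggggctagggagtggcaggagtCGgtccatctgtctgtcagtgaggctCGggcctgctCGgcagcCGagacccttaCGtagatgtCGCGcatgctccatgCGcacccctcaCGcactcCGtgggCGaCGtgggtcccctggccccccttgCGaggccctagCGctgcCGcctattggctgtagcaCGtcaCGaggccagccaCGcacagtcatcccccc
Isl1: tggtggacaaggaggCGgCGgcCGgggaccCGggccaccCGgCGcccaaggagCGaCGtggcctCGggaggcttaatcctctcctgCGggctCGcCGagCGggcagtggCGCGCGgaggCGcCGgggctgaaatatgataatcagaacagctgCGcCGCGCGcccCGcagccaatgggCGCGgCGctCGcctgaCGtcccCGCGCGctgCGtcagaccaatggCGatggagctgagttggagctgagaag
Mei1: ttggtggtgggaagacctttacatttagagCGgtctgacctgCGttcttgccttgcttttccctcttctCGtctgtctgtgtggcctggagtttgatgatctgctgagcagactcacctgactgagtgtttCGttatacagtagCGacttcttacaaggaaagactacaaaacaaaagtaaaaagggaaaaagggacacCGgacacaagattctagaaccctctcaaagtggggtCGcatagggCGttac
Prm1: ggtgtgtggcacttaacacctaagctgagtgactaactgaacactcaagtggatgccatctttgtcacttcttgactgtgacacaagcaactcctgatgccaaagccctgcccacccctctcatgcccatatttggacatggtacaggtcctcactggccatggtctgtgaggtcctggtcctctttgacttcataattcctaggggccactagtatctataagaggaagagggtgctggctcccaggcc

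Across the genes matched by symbol to a RefSeq promoter within 3000 bp, 15581 in all, the median number of CpGs in these 250 bases was 18 for both marks (5150 genes), 14 for H3K4me3 alone (2618 genes), 3 for H3K27ac alone (85 genes) and 2 for neither mark (4573 genes). In the 1000 bp around the representative start, 83.9% of the genes with both marks and 62.1% of those with H3K4me3 alone had a CpG observed-over-expected ratio above 0.6, against 3.39% for H3K27ac alone, 3.12% for neither mark and 47.5% of all protein-coding genes. The ETS core CCGGAA, searched on both strands, was in 27.8% of the 250-base windows of genes with both marks and in 14.8% of those with H3K4me3 alone, against 16.5% of all windows. GGGCGG, the SP/KLF box, was in 63.8% and 61.3% of these windows and in 46.6% of all, and CCAAT, the NF-Y box, in 36.5% and 34.8% and in 35.9% of all. TATAAA was in 4.83% of the windows with both marks, in 7.37% of those with H3K4me3 alone and in 23.4% of those with neither mark, against 11.1% of all. A letter match of this kind describes the sequence and is no evidence of binding.

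The lists of the marks differed in shape. The H3K4me3 lists held 19162 and 18465 peaks with a median width of 857 and 796 bp, and the H3K27ac lists held 21974 and 23780 peaks with a median width of 293 and 301 bp. Summits within a promoter made up 86.3% and 87.6% of the H3K4me3 peaks and 49.8% and 50.9% of the H3K27ac peaks. The difference was 36.6 percentage points, with 86.9% ± 0.919 (SD, n = 2 lists) for H3K4me3 and 50.3% ± 0.778 (SD, n = 2 lists) for H3K27ac, and the lists of the marks did not overlap. With both marks at a q of 0.05 the difference was 25.3 points, and at a q of 0.01 it was 16.5. An exact permutation test over the 4 lists, two-sided, gave p = 0.333, the smallest it can give. The median fold enrichment over background was 5.13 and 5.26 for H3K4me3 and 3.21 and 3.24 for H3K27ac.

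The repeatability of the marks also differed, and this bears on every count below. Of the H3K4me3 peaks, 84.4% and 89.8% overlapped a peak of the other H3K4me3 list, whereas 38.0% and 35.0% of the H3K27ac peaks overlapped one of the other H3K27ac list. The peak names carry a p of 0.005 for H3K27ac and a q of 0.05 for H3K4me3, and 41.7% and 46.7% of the H3K27ac peaks passed a q of 0.05. At that q for both marks, 3894 genes held both marks and 6015 held H3K4me3 alone, so a promoter of H3K4me3 alone is one with no called H3K27ac peak and not one shown to lack the mark. With only the first or only the second H3K27ac list, 5478 and 4823 genes held H3K4me3 alone. Of the 6634 genes with both marks, which were chosen for a summit in both H3K27ac lists, the H3K27ac peaks of the 2 lists overlapped each other in 5619 (84.7%).

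Within promoters both marks lay mainly downstream of the start site. The summit was downstream in 83.2% and 82.8% of H3K4me3 peaks and in 67.5% and 68.0% of H3K27ac peaks, with a median position of 223 and 227 bp and of 164.5 and 166 bp after the start. In the stretch of 250 to 1000 bp downstream lay 38.2% and 39.5% of the H3K4me3 summits and 30.5% and 29.7% of the H3K27ac summits. H3K4me3 itself was wider and stronger where H3K27ac was present. Its summed peak width per promoter had a median of 1415 and 1331 bp at genes with both marks and of 966 and 860.5 bp at genes with H3K4me3 alone, with a median fold enrichment of 6.13 and 6.24 against 5.28 and 5.28.

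Genes with both marks had the higher RNA levels in every library. In TPM, the share of all transcripts scaled by gene length, the median of the 6631 measured genes with both marks was 34.9, 35.5 and 32.7 in the bulk libraries and 31.0 and 29.4 in the Smart-seq2 libraries. The median of the 3623 measured genes with H3K4me3 alone was 7.16, 7.26 and 6.67 in bulk and 1.79 and 0.58 in Smart-seq2. Genes with H3K27ac in 1 list only lay between them, with 22.9, 22.8 and 21.8 in bulk and 11.8 and 11.5 in Smart-seq2. As medians of log2(TPM + 1), the genes with both marks were higher than those with H3K4me3 alone by 2.14 ± 0.0032 (SD, n = 3 libraries) in bulk and by 3.89 ± 0.53 (SD, n = 2 libraries) in Smart-seq2. The difference was positive in 3 of 3 and 2 of 2 libraries. Its size depended on the calls and the genes kept, with 1.15 in bulk at a q of 0.01 for both marks, 1.40 in bulk and 2.47 in Smart-seq2 without the second H3K27ac list, and 1.53 in Smart-seq2 among genes with a TPM above 0 in every library. Exact sign-flip permutation tests over libraries gave p = 0.25 and p = 0.5, two-sided, which are the smallest values these numbers of libraries allow.

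**Figure D1:**
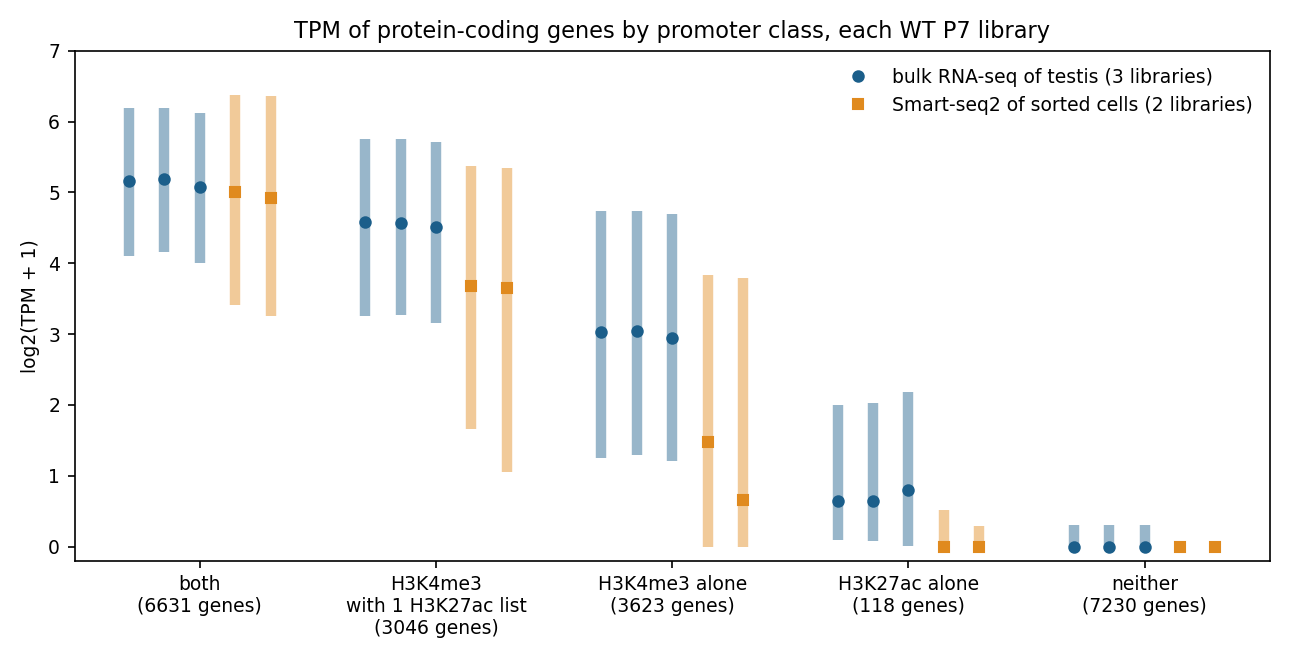
Level of protein-coding genes by promoter class in each of the 5 WT P7 libraries, as log2(TPM + 1). Points are medians over genes and bars run from the lower to the upper quartile; the medians of the class with both marks lie above those of H3K4me3 alone in all 5 libraries, by 2.14 in bulk and 3.89 in Smart-seq2 on average.

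H3K4me3 alone was nevertheless not a silent class. A TPM of at least 1, the level taken as expressed, was reached by 78.3%, 78.8% and 78.3% of its genes in bulk and by 53.5% and 48.1% in Smart-seq2, against 96.8%, 96.9% and 96.8% and 91.2% and 87.7% of the genes with both marks. Of all measured protein-coding genes, 62.6% had a mean bulk TPM of at least 1 and 53.6% a mean Smart-seq2 TPM of at least 1. Among genes with neither mark, 12.8% reached this level in each bulk library and 7.48% and 6.72% in the Smart-seq2 libraries. In whole-testis RNA, fewer cells of a type and less RNA per cell cannot be told apart.

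The order of both marks above H3K4me3 alone was the same at high and low CpG content and over the range of H3K4me3 strength. Among H3K4me3 promoters with a CpG ratio above 0.6, 55.8% of 9970 held both marks, and the difference between both marks and H3K4me3 alone in log2(TPM + 1) was 2.0 in bulk and 3.28 in Smart-seq2. Among the 3330 with a lower ratio, 32.0% held both marks and the differences were 1.82 and 3.28. When H3K4me3 promoters were ordered by fold enrichment into 4 groups of 3325, the share with both marks went from 30.8% to 47.8%, 57.0% and 63.8%. Within these groups the bulk difference was 2.56, 2.35, 2.0 and 1.57, and the Smart-seq2 difference was 3.86, 4.36, 3.32 and 2.43. These are descriptions over genes, which are not replicates, and carry no test.

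Read from the RNA side, H3K4me3 was at almost all genes of a TPM of 10 or more, and H3K27ac at fewer of them. Of the 8025 genes with a mean bulk TPM of 10 to 100, 96.0% held H3K4me3 and 56.4% held both marks; of the 1668 genes at 100 or more, 98.7% and 64.6%. In Smart-seq2 the shares were 96.4% and 60.2% of 6006 genes at 10 to 100, and 98.8% and 72.6% of 1859 genes at 100 or more. At a TPM of 1 to 10, H3K4me3 was at 70.2% of 4006 genes in bulk and at 80.2% of 3875 in Smart-seq2. Among the 5456 genes under a bulk TPM of 0.1, 5.33% held H3K4me3 and 1.21% both marks. H3K4me3 alone was most frequent at a bulk TPM of 1 to 10, where it made up 32.1% of 4006 genes. In Smart-seq2 its share was highest at 0.1 to 1, with 28.3% of 1208 genes, and was 27.2% at 1 to 10.

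**Figure D2:**
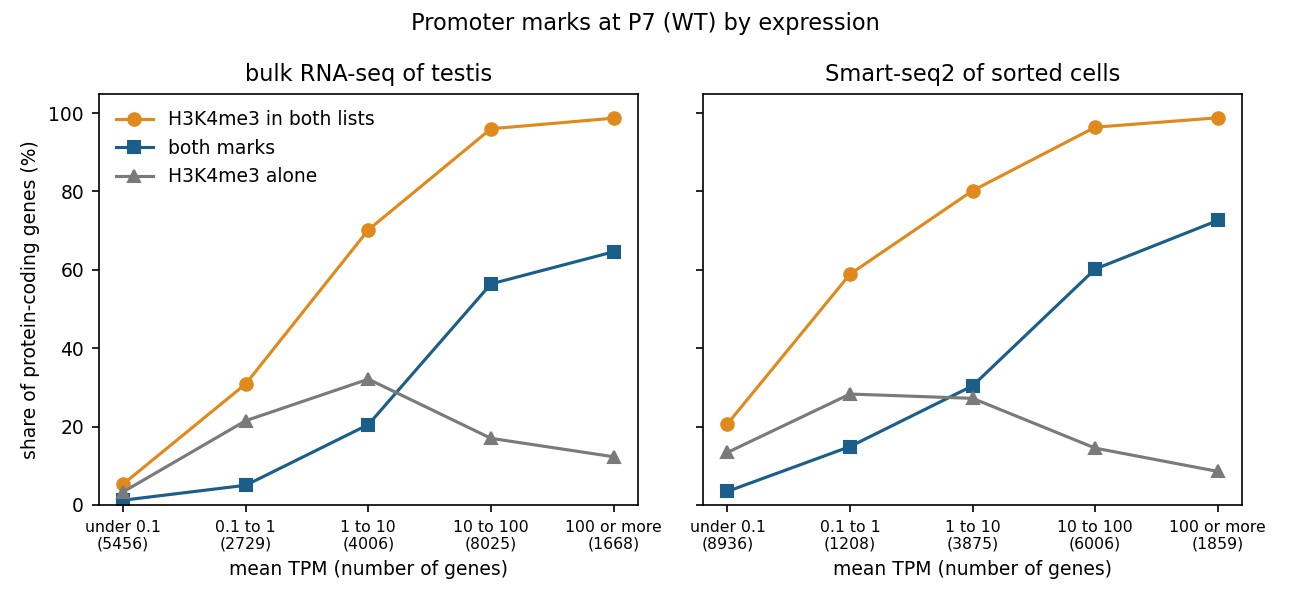
Share of protein-coding genes, in percent, with H3K4me3 in both lists, with both marks and with H3K4me3 alone, by bins of mean TPM in bulk RNA-seq (left) and Smart-seq2 (right); the number of genes in each bin stands under it. The share with both marks goes from 1.21% to 64.6% over the bulk bins. H3K4me3 alone peaks at 32.1% in the bulk bin of 1 to 10 and at 28.3% in the Smart-seq2 bin of 0.1 to 1.

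The genes with the highest RNA levels in each class show how far the classes overlap in expression. Both marks stood at Eef1a1, the elongation factor that brings tRNA to the ribosome, with 7529.7, 7800.4 and 7369.6 TPM in bulk, and at Rpl41, a protein of the large ribosomal subunit, with 4638.9 and 5109.5 TPM in Smart-seq2. Eef1a1 had a fold enrichment of 3.29 and 3.68 for H3K27ac and of 6.36 and 7.33 for H3K4me3. H3K4me3 alone also held genes of very high level. Rps12, a protein of the small ribosomal subunit, had 3162, 3134 and 3579 TPM in bulk and Ppia, the prolyl isomerase cyclophilin A, had 4166 and 4312 TPM in Smart-seq2, both with no H3K27ac summit in either list. Tex101, a germ cell surface protein, had 59.7, 79.8 and 74.9 TPM in bulk and 1576 and 1591 in Smart-seq2 with H3K4me3 alone.

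Housekeeping genes held both marks most often, beside 30.2% of all protein-coding genes. Of 24 genes of mitochondrial respiration, 20 held both marks; Cox4i1, a subunit of cytochrome c oxidase, had a fold enrichment of 3.63 and 3.77 for H3K27ac and of 5.80 and 5.47 for H3K4me3, with 955, 929 and 1049 TPM in bulk. Both marks were at 60 of 81 genes of cytosolic ribosomal proteins, at 25 of 39 proteasome subunits and at 15 of 24 cell cycle genes, among them Pcna, the clamp of DNA replication, with 214, 207 and 207 TPM in bulk. None of the 24 cell cycle and 24 respiration genes lacked H3K4me3. The housekeeping genes with H3K4me3 alone included several on the X chromosome, namely Ndufa1, a subunit of complex I, and the ribosomal genes Rps4x and Rpl39.

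Developmental regulators had the opposite pattern. Of 60 transcription factors of embryonic development, none held both marks and 28 (46.7%) held H3K4me3 alone, against 16.5% of all protein-coding genes. Of 39 Hox genes, which set position along the body axis, none held both marks and 17 (43.6%) held H3K4me3 alone. Hox genes lie close together in clusters, so that 1 peak can fall in the windows of several. An H3K27ac summit in 1 list was present at Gata6, Lhx2, Lhx8 and Irx5, and at no Hox gene. With either H3K27ac list left out, 1 to 3 genes of these lists held both marks.

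H3K4me3 was in both lists at 32 of the 60 factors and at 17 of the 39 Hox genes, and 20 and 17 of them had neither mark. Among the marked factors, at Isl1 its fold enrichment was 8.42 and 7.35, and at Sox2, a factor of neural and pluripotent cells, 5.33 and 4.29. The peaks of Sox2 spanned 1570 and 1432 bp. Their RNA was low in bulk. Isl1 had 1.05, 0.84 and 1.28 TPM in bulk and 4.01 and 9.96 in Smart-seq2, where both values were above the median of all genes. Sox2 had 0.06, 0.11 and 0.05 TPM in bulk and 0.0 and 0.04 in Smart-seq2. The median of the 60 factors was 0.282 TPM in bulk, and 15 had a mean of at least 1. Some had RNA with no H3K27ac summit. Hoxb9 had 15.1, 13.3 and 15.5 TPM in bulk, Hoxd10 12.4, 12.6 and 12.6, and Dlx1, a factor of forebrain neurons, 4.78, 6.99 and 4.22 in bulk and 11.6 and 11.9 in Smart-seq2.

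**Figure D3:**
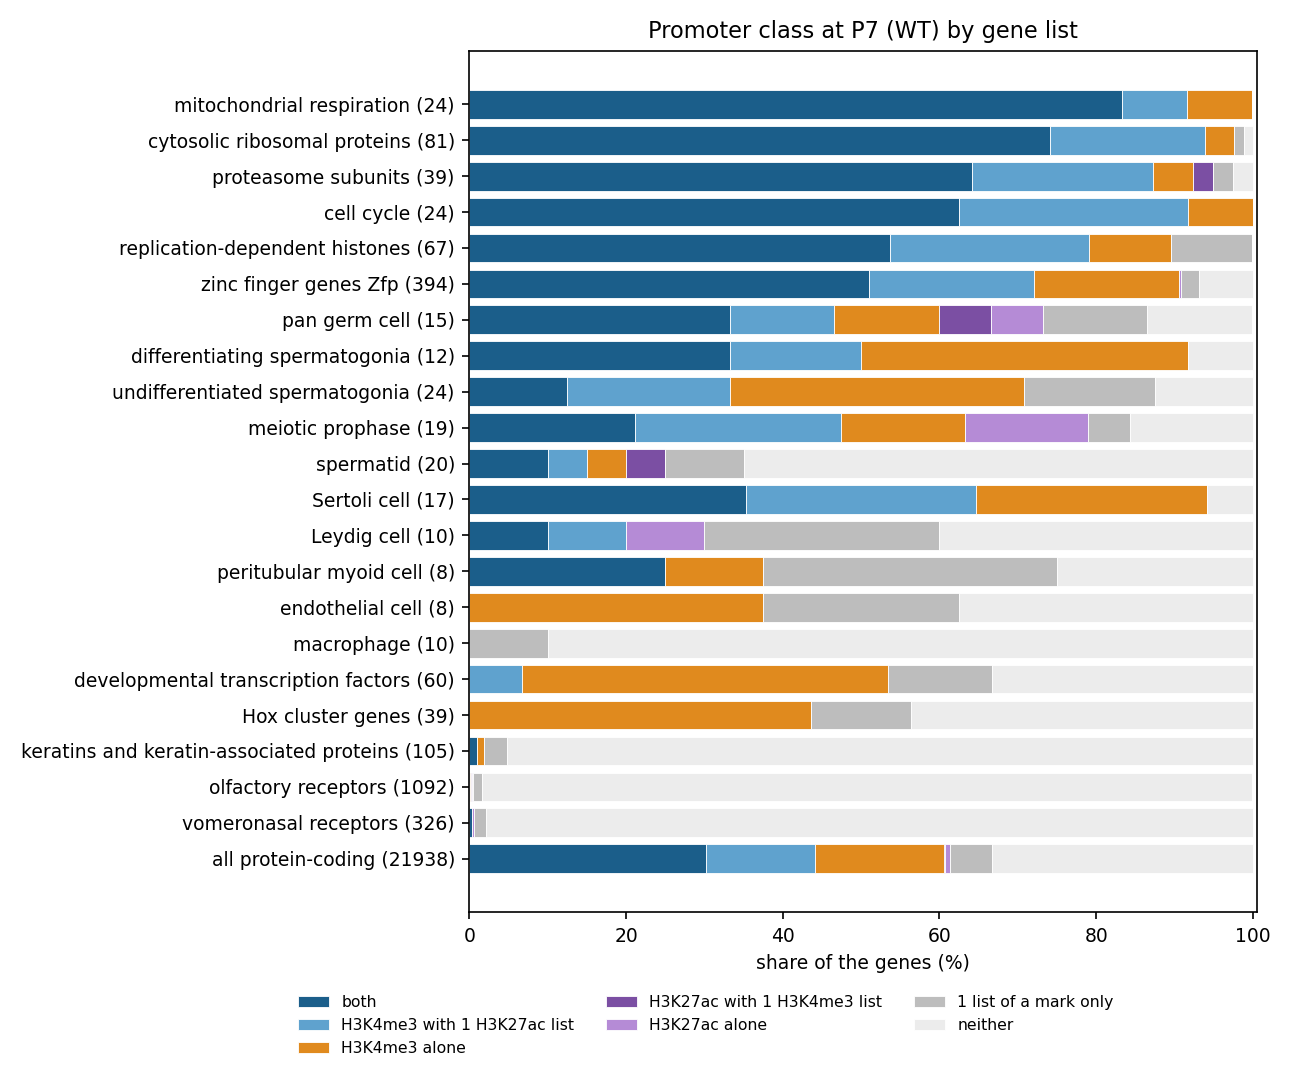
Share of each gene list, in percent, by promoter class at P7, with the number of genes in parentheses and all protein-coding genes at the bottom. Both marks take 83.3% of the respiration genes and 0.0% of the developmental factors and Hox genes, in which H3K4me3 alone takes 46.7% and 43.6%.

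The counts of spermatogonial genes are given beside all protein-coding genes, of which 30.2% held both marks, 16.5% H3K4me3 alone and 33.2% neither. Of 24 genes of undifferentiated spermatogonia, the pool that contains the stem cells, 3 (12.5%) held both marks, 9 (37.5%) H3K4me3 alone and 3 (12.5%) neither. Both marks were at Etv5, an ETS factor that responds to GDNF, at Foxo1, a forkhead factor, and at Taf4b, a subunit of the germ cell TFIID. The GDNF receptor genes Gfra1 and Ret held H3K4me3 alone, Gfra1 with 11.3, 12.8 and 8.51 TPM in bulk and 9.52 and 19.8 in Smart-seq2. Of 12 genes of differentiating spermatogonia, 4 (33.3%) held both marks, near the share of all genes, and 5 (41.7%) H3K4me3 alone. Dmrt1, which controls the choice between mitosis and meiosis, held both marks with 280.2, 277 and 258 TPM in bulk, whereas Kit, the receptor of the differentiating cells, held H3K4me3 alone with 52.2, 54.6 and 47.4. Stra8, the retinoic acid target that begins meiosis, also held H3K4me3 alone, with 95.0, 139 and 132 TPM. Sohlh1, a helix-loop-helix factor of these cells, had no summit of either mark, with 89.7, 102 and 95.2 TPM in bulk and 185 and 115 in Smart-seq2.

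Among genes of germ cells and of meiotic prophase, some shares were near those of all genes. Of 15 genes shared by germ cells, 5 (33.3%, against 30.2% of all) held both marks, namely Ddx4, Dazl, Piwil2, Mov10l1 and Rbm46, which encode RNA-binding proteins, helicases and a PIWI protein. Dazl had a fold enrichment of 4.13 and 4.10 for H3K27ac and of 6.85 and 6.33 for H3K4me3, with 242, 281 and 210.1 TPM in bulk and 323 and 368 in Smart-seq2. Neither mark was at Tdrd1, of the piRNA pathway, or at Tex19.1, a germ cell gene with 92.4, 99.5 and 94.8 TPM in bulk. Of 19 meiotic genes, 4 (21.1%, against 30.2%) held both marks, 5 (26.3%, against 13.9%) had H3K4me3 with H3K27ac in 1 list, 3 (15.8%, against 16.5%) held H3K4me3 alone and 3 (15.8%, against 33.2%) had neither. The count with both marks was 8 without the first H3K27ac list and 0 at a q of 0.01 for both marks. Sycp1, the transverse filament of the synaptonemal complex, held both marks with 37.5, 52.3 and 38.2 TPM in bulk and 288 and 289 in Smart-seq2. Syce3, of the central element of that complex, held H3K4me3 alone with 27.6, 26.99 and 29.5 TPM in bulk and 569 and 490 in Smart-seq2. Rec8, Msh5 and Tex11 had no summit of either mark although their mean Smart-seq2 TPM was 29.0, 54.7 and 108. Of 20 spermatid genes, 13 (65.0%, against 33.2% of all) had neither mark, among them Prm1, which was listed at 0 in all 5 libraries.

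The genes classed as H3K27ac alone were few. Their H3K27ac had a median fold enrichment of 3.15 and 3.14, against 3.46 and 3.62 at genes with both marks. Of these 118 genes, the peaks of the 2 lists overlapped each other in 58 (49.2%), against 84.7% for genes with both marks, so that in the rest the peaks of the 2 lists lay apart, in the case of Tdrd9 at different annotated start sites. Their number was 47 with a promoter of 1000 bp and 19 at a q of 0.05 for both marks, and it was 377 and 395 without the first and the second H3K27ac list. Their RNA was low, with a median TPM of 0.565, 0.555 and 0.735 in bulk and 0 in both Smart-seq2 libraries. They included the meiotic genes Mei1, Msh4 and Spo11 and the germ cell genes Tdrd9 and Tex19.2, and of these 5 the peaks of the 2 lists overlapped at Tex19.2. Mei1 had 4.69, 6.03 and 5.46 TPM in bulk and 60.2 and 30.4 in Smart-seq2. Of the 118 genes, 16 (13.6%) held H3K4me3 in both lists of postnatal day 14 (P14), when spermatocytes have formed, and the 5 genes just named were among them. Of all protein-coding genes 63.1% did, and of those with neither mark at P7 5.07%. The 5 were named from the gene lists or by RNA level. Other testis genes of the class were not counted, and some of them had no H3K4me3 summit at P14. Other genes of the class included Cyp11a1, the enzyme that begins steroid synthesis in Leydig cells, with 84.7, 76.0 and 91.8 TPM in bulk and 0 in Smart-seq2. They also included Apoe, the lipid carrier, with 244, 226 and 339 in bulk and 30.3 and 21.1 in Smart-seq2. At neither of these genes did the H3K27ac peaks of the 2 lists overlap.

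Markers of Sertoli cells, the somatic cells that nurse the germ cells, were marked too in these lists labelled spermatogonia. Of 17 Sertoli genes, 6 (35.3%, near the 30.2% of all genes) held both marks, 5 (29.4%, against 13.9%) H3K4me3 with H3K27ac in 1 list and 5 (29.4%, against 16.5%) H3K4me3 alone, and only Rhox5 had neither. Both marks were at Fshr, the receptor of follicle-stimulating hormone, at Gdnf and Kitl, which encode signals to spermatogonia, and at Clu, Nr5a1 and Aard. Clu, which encodes clusterin, had 2504, 2528 and 2718 TPM in bulk and 118 and 109.8 in Smart-seq2, and Fshr had 24.3, 27.7 and 25.1 in bulk and 0.42 and 1.10 in Smart-seq2. Amh, the anti-Müllerian hormone, held H3K4me3 alone with 686, 567 and 721 TPM in bulk. Of the other somatic lists, both marks were at 2 of 8 peritubular myoid genes (Acta2 and Mylk) and 1 of 10 Leydig genes (Fdx1), and at none of 8 endothelial and 10 macrophage genes, beside 30.2% of all. Insl3, the hormone of Leydig cells, had no summit of either mark with 279, 277 and 339 TPM in bulk. H3K4me3 was thus in both lists at 16 of the 17 Sertoli genes, at 11 of the 12 genes of differentiating and 17 of the 24 of undifferentiated spermatogonia, and at 9 of the 15 germ cell genes, beside 60.7% of all protein-coding genes. Per the methods, the cells for CUT&Tag had passed a strainer meant to remove Sertoli cells, after a digestion meant to remove interstitial cells, and the study describes the filtrate as nearly all germ cells. The part of Sertoli cells in the class counts was not tested.

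The X chromosome, of which male cells carry a single copy, held H3K27ac less often than any autosome. H3K4me3 was in both lists at 463 of 948 X-linked genes (48.8%) and at 61.7% of autosomal genes, and both marks were at 26.6% of these X-linked promoters against 50.7% on the autosomes, where the chromosomes ranged from 42.6% to 57.3%. H3K4me3 alone was found at 222 X-linked genes and both marks at 123. Taken list by list, an H3K27ac summit was at 35.2% and 43.4% of the X-linked H3K4me3 promoters, against ranges over autosomes of 51.5% to 66.1% and 58.5% to 68.8%. The gap was present within a bin of RNA level. Of 311 X-linked genes with a mean bulk TPM of 10 to 100, 27.3% held both marks, against 57.6% of 7707 autosomal genes, and of 234 with a mean Smart-seq2 TPM of 10 to 100, 27.4% against 61.6% of 5763. H3K4me3 itself was in both lists at 87.1% and 76.9% of these X-linked genes and at 96.4% and 97.2% of the autosomal ones. The median fold enrichment of H3K4me3 was 6.51 on the X and 5.83 on the autosomes. In the P14 lists, 76.0% and 74.1% of the same X-linked promoters held an H3K27ac summit, against 84.1% and 81.6% of the autosomal ones. With 2 lists, no test over lists can pass a threshold, and the part of the copy number in the peak calls was not tested.

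**Figure D4:**
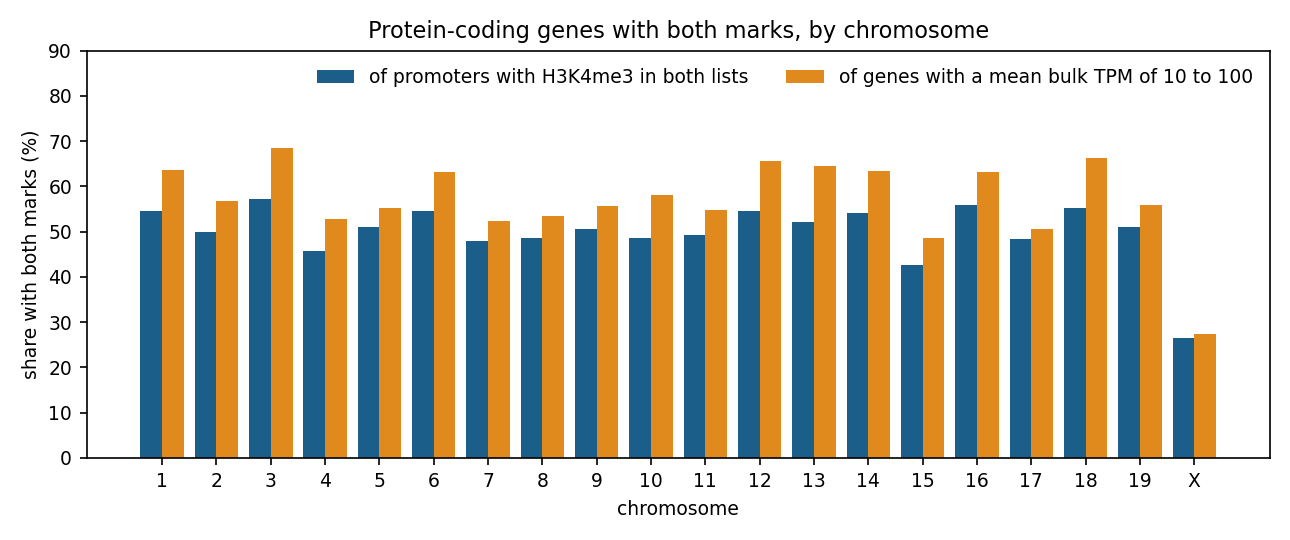
Share of genes with both marks, in percent, on each autosome and the X chromosome, among promoters with H3K4me3 in both lists (blue) and among genes with a mean bulk TPM of 10 to 100 (orange). The X chromosome has the lowest bars, at 26.6% and 27.3%, and the lowest autosome, 15, has 42.6% and 48.7%.

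The classes also differed in the arginine methylation marks mapped in WT samples of the same age. Each was counted where at least 2 of its lists had a summit in the promoter. H4R3me2a had 3 lists and each other mark 2, so the rule was looser for H4R3me2a and its shares are not comparable with theirs. H4R3me2s, symmetric dimethylation of arginine 3 of histone H4, was at 40.2% of promoters with both marks and at 10.4% of those with H3K4me3 alone, against 17.7% of all protein-coding genes. H4R3me2a, the asymmetric form, was at 30.1% and 12.1%, against 15.3% of all. H3R8me2a was at 23.2% and 4.19%, H4R3me1 at 23.5% and 5.71% and H3R2me2a at 21.2% and 10.4%, against 9.67%, 10.8% and 10.9% of all. Each of the 5 marks was thus more frequent with both marks than with H3K4me3 alone. At the 118 promoters with H3K27ac alone, H4R3me2a was at 28.0%, H3R8me2a at 20.3%, H4R3me1 at 16.9% and H3R2me2a at 16.1%, each above H3K4me3 alone, and H4R3me2s at 6.78%, below it. In single lists the ranges of both marks and of H3K4me3 alone did not overlap for any of the 5 marks, for example 58.3% to 61.3% against 29.1% to 30.2% for H4R3me2s. With H3K27ac alone, the single lists of H4R3me2s gave 26.3% to 28.0%, only a little below H3K4me3 alone.

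A week later most promoters with both marks were unchanged in class, whereas those with H3K4me3 alone were divided. Of the 6634 genes with both marks at P7, 6391 (96.3%) held both at P14. Of the 3624 genes with H3K4me3 alone, 1382 (38.1%) held both marks at P14, 922 (25.4%) had H3K27ac in 1 list and 1106 (30.5%) again held H3K4me3 alone. The P14 lists were longer, with 37984 and 45817 peaks for H3K27ac and 25627 and 26635 for H3K4me3, and both marks stood at 47.3% of all protein-coding genes. Of the 19 meiotic genes, 4 held both marks at P7 and 18 at P14, and of the 15 germ cell genes 5 and 12. Of the 60 developmental factors none held both marks at P7 and 1 (Irx5) at P14, and of the 39 Hox genes none and 2. Age, cell makeup and list length cannot be told apart in this comparison.

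Away from start sites, the 1596 H3K27ac regions without H3K4me3 (20.1% of the 7941 shared regions) had a median width of 503 bp and a median fold enrichment of 3.29 in both lists. Their number was 9969 to 10580 with either H3K27ac list left out and 409 at a q of 0.05. Of their summits, 890 (55.8%) lay in an intron of a protein-coding gene and 53 (3.32%) in an exon of any gene. The other 653 (40.9%) lay outside exons and outside protein-coding genes, and may include introns of other gene types. The nearest start site of any gene was 13.9 kb away at the median, with quartiles of 7.07 and 27.1 kb. They were CpG-poor, with a median observed-over-expected ratio of 0.158 in the 301 bp around the summit, against 0.787 for H3K27ac regions at promoters with H3K4me3. They were scattered, with 1483 single regions, 52 pairs and 3 stretches of 3 regions when gaps of up to 10 kb were joined.

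Many of these windows were repetitive, and the strongest were the most so. A string of 12 bases occurred at least 3 times within the 301 bp of 630 regions (39.5%), against 19.3% of all H3K27ac regions. The share was 6.15% at promoters with H3K4me3 and 31.1% at promoters without it. Among the distal regions without H3K4me3 it was 23.8% in the 160 of lowest fold enrichment and 61.3% in the 160 of highest. Of the 10 regions of highest fold enrichment, 8 held such a string. The strongest region, 36.3 kb from the nearest start of a protein-coding gene, Mogat1, an acyltransferase gene, had a fold enrichment of 7.5 and 6.0, and the third, in Mctp1, had 6.69 and 5.21. Another window, shown for contrast, lies in an intron of Fshr, 22.2 kb from its nearest start, with a fold enrichment of 3.35 and 3.32 and no such string. The 201 bp around each summit are given on the plus strand of GRCm38.p6, with CpG dinucleotides in capitals.
Mogat1 (chr1:78573818-78574018): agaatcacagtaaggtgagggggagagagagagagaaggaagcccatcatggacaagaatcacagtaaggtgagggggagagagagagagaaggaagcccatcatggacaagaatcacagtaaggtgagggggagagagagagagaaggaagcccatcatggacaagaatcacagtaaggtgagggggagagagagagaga
Mctp1 (chr13:76590893-76591093): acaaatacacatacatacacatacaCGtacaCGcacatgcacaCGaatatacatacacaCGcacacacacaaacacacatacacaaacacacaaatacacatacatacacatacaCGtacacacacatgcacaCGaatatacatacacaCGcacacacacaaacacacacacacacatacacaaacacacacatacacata
Fshr (chr17:89178342-89178542): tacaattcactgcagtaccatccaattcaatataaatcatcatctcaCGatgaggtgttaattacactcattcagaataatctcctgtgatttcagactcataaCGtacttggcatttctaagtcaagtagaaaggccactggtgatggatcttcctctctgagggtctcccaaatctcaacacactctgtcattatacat

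The windows of Mogat1 and Mctp1 are made up largely of repeated short strings, and that of Fshr is not. The repetitive regions also carried the peaks of other antibodies. Of the 630 regions with a repeated string, 43.5% were overlapped by H4R3me2a, 41.6% by H4R3me1, 33.2% by H3R8me2a and 25.7% by H3R2me2a in at least 2 lists, against 9.21%, 6.21%, 6.31% and 4.55% of the other 966 regions. H3K27ac at P14 was at 21.9% of the first and 32.2% of the second. The GATA motif AGATAA, searched on both strands, was in 19.4% of the 966 windows and in 5.71% of the 630, against 6.81% of all H3K27ac regions, and the AP-1 motif TGANTCA was in 9.83% and 4.13%, against 4.48% of all. The median GC content was 46.8% in the windows of the 1596 distal regions without H3K4me3 and 57.8% in those of all H3K27ac regions. The part of base composition in the motif shares was not tested, nor was that of read mapping in repeats.

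The 683 distal H3K27ac regions that did overlap an H3K4me3 peak had more of both. A repeated string was in 65.0% of them, and H4R3me2a, H4R3me1, H3R8me2a, H3R2me2a and H4R3me2s overlapped 71.0%, 70.7%, 68.1%, 60.3% and 52.0% of them. For the 1596 regions without H3K4me3 these shares were 22.7%, 20.2%, 16.9%, 12.9% and 6.52%, and for the 5235 regions at promoters with H3K4me3 they were 19.4%, 14.3%, 16.5%, 12.2% and 27.2%. At P14, H3K27ac overlapped 28.1% of the distal regions without H3K4me3 and 92.3% of the promoter regions with it.

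**Figure D5:**
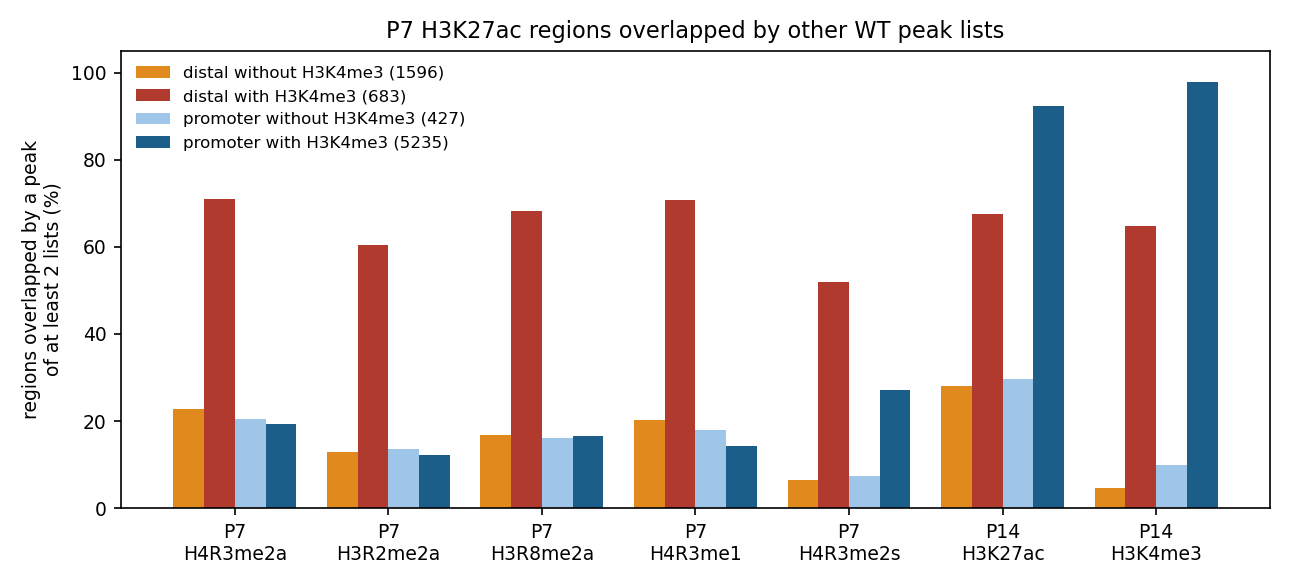
Share of P7 H3K27ac regions, in percent, overlapped by peaks of at least 2 lists of 5 arginine methylation marks at P7 and of H3K27ac and H3K4me3 at P14, by kind of region with its number in parentheses. H4R3me2a has 3 lists and each other mark 2. Distal regions with H3K4me3 have the tallest bars for all 5 arginine marks, at 52.0% to 71.0%.

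The genes nearest to distal regions without H3K4me3 were mostly expressed in testis. The nearest protein-coding genes, 1312 in all, had a median TPM of 19.2, 20.1 and 17.9 in bulk and of 6.21 and 6.17 in Smart-seq2, against 6.04, 6.10 and 5.58 and 1.52 and 0.48 for all protein-coding genes. Within a promoter class the gap took several forms. Genes with both marks and 1 such region within 50 kb, 419 in all, had 35.2, 35.7 and 30.8 TPM in bulk and 20.6 and 18.9 in Smart-seq2, against 35.0, 35.6 and 33.1 and 32.2 and 30.3 for those with none. Genes with H3K4me3 alone and 1 region had 10.4, 10.7 and 10.9 in bulk and 1.33 and 0.91 in Smart-seq2, against 6.90, 7.03 and 6.49 and 1.79 and 0.58 with none. The 11 genes with H3K4me3 alone and 2 or more regions had 23.9, 25.6 and 23.8 in bulk and 8.81 and 3.91 in Smart-seq2, and the 68 with both marks and 2 or more had 27.7, 27.8 and 24.9 and 21.0 and 19.5. Both marks were at the promoters of 612 of all the nearest genes (46.6%, against 30.2% of all) and H3K4me3 alone at 218 (16.6%, against 16.5%). Few were genes of the lists. A region of this kind had as its nearest start that of Fshr and Gata4 among 17 Sertoli genes, of Tspan8 and Ddit4 among 24 genes of undifferentiated spermatogonia, of Mylk among 8 myoid genes, of Psma6 among 39 proteasome genes and of the keratin gene Krt222, beside 3.46% of all protein-coding genes. The lists of differentiating spermatogonia, germ cells, meiosis, spermatids, Leydig cells, macrophages, endothelium, developmental factors, Hox, respiration, cell cycle and histone genes had none, and nothing is read from a count of 0 in lists this short. The region at Gata4, a zinc finger factor of Sertoli cells with 245, 216 and 209 TPM in bulk, lay in an exon with a fold enrichment of 2.57 and 2.27. The region at Mylk, the myosin light chain kinase of smooth muscle, lay 3.13 kb from a start with 3.75 and 2.79.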

How the data were processed

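Per the labels and the study's methods, CUT&Tag reads were trimmed with fastp 0.23.2 and the authors called peaks in each sample with MACS2 2.1.0 against mm10. The aligner is not given in the sources used here, nor whether a control library entered the calls. The deposited peak lists hold, for each peak, the fold enrichment over background as a ratio at the summit and the p and q values as −log10. The RNA tables hold the expected count and the TPM per gene, which the authors made with STAR 2.7.6a and RSEM.

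Peaks on the autosomes and on X and Y were placed by their summit about the start sites of 55413 GENCODE vM21 genes (GRCm38, the build of mm10; every peak lay within its chromosome). H3K27ac regions are unions of overlapping peaks holding a peak of both lists. TPM was matched by Ensembl ID for 21884 of 21938 protein-coding genes. Differences of class medians used log2(TPM + 1). Tests were exact permutations over lists or libraries, two-sided. The classification was tested on simulated peaks with known classes. Tools were Python 3.11.15, numpy 2.4.6, pandas 2.3.3 and pysam 0.24.0.

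The members, gene lists and tests were chosen with earlier results of these data known. Named genes are those of the gene lists, the 5 of highest mean TPM per assay in each class, and the genes nearest to the 10 strongest distal regions or among list genes. Some of these are not reported here. Knockout samples and other P14 lists were not used here. The repeated-string measure was chosen after the regions were seen.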

Additional observations from a re-analysis of the deposited data

How the results depend on the processing

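Of 142 recomputed values, 114 were labelled as unchanged and 28 as moved. A count was unchanged where it stayed within a fixed ratio of the reported one. A TPM, width or promoter share difference was unchanged where it kept its sign, which all did, whatever its size. The promoter share difference, for instance, fell from 36.6 to 16.5 points at a q of 0.01. The larger of the 2 main classes did change with the threshold. With both marks at a q of 0.05, 3894 genes held both marks, 6015 H3K4me3 alone and 19 H3K27ac alone, and 409 distal regions were left; at a q of 0.01 these were 2283, 8005, 3 and 119. Among the 11146 genes whose promoter overlaps no other, they were 2325, 1894 and 71 genes. H3K27ac alone was at 47 genes with a window of 1000 bp, at 75 with lists of equal length and at 654 with 1 list sufficing, when distal regions numbered 18816; leaving out repeated strings, an alternative chosen after seeing the data, gave 966. Leaving out a list gave 3830 to 5478 genes with H3K4me3 alone, 127 to 395 with H3K27ac alone and 1710 to 10580 distal regions. The bulk TPM difference between both marks and H3K4me3 alone ranged from 1.15 (q of 0.01) to 2.36 (promoters that overlap no other) and that of Smart-seq2 from 1.53 (TPM above 0 in every library) to 4.74 (pseudocount of 0.1). The lists share only replicate numbers: with the replicate block the promoter share difference was 36.6 points and the width difference 530 bp (exact sign-flip p = 0.5, the smallest possible). The number of lists, the unequal thresholds and the low repeatability of H3K27ac limit the counts.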

Other observations

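Long intergenic RNA genes held both marks or H3K4me3 alone less often than protein-coding genes, and H3K27ac alone at a similar low share. Of 5854 annotated lincRNA genes, 274 (4.68%) held both marks, 252 (4.30%) H3K4me3 alone, 45 (0.769%) H3K27ac alone and 4747 (81.1%) neither, against 30.2%, 16.5%, 0.538% and 33.2% of protein-coding genes. Of 1092 olfactory receptor genes 1075 (98.4%, against 33.2% of all protein-coding genes) had neither mark and none held both, and 100 keratin and keratin-associated genes (95.2% of those listed) had neither. Of 394 Zfp zinc finger genes, which are also clustered, 201 (51.0%, against 30.2%) held both marks and 73 (18.5%, against 16.5%) H3K4me3 alone, with a median TPM of 7.86 in bulk. Of 67 replication-dependent histone genes, which lie close together and share promoter windows, 36 (53.7%, against 30.2%) held both marks, and each of the 67 had a summit of at least 1 list. Hist1h2ap, a histone H2A gene, had both marks with 0.0, 9.0 and 3.58 TPM in bulk and 3483 and 3274 in Smart-seq2. Reads of such near-identical copies can be split between genes.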
